A study of Mus musculus with 10 samples.

Results

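Alpha cells of the embryonic mouse pancreas were taken from 8 single-cell RNA-sequencing libraries as cells in which *Gcg*, the gene for preproglucagon, made up at least 1% of all UMIs (unique molecular identifiers, 1 per captured transcript). A cell also had to hold at least 200 genes, at least 1 UMI of *Chga* (chromogranin A, a protein of endocrine secretory granules) and at most 1 UMI of *Col3a1* (a collagen of mesenchymal cells). Insulin UMIs (*Ins1* and *Ins2* together) had to stay under 1%, *Sst* under 0.5% and *Ghrl* under 0.3%. These limits left 1232 alpha cells of 57982 cells with enough genes. They were described against the other 6155 cells with at least 2 *Chga* UMIs in the same libraries, which are called other *Chga* cells here, and against 1505 insulin cells and 228 ghrelin cells chosen by the same kind of limits on their own hormone. Insulin and ghrelin cells with at least 2 *Chga* UMIs are also among the other *Chga* cells. The levels of the 7 genes in these limits chose the cells, so they are given as descriptions and were not tested.

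Alpha cells are the glucagon-secreting endocrine cells of the islet, and glucagon raises blood glucose by acting on the liver. In the mouse embryo they are among the first hormone-producing cells of the pancreas, and like the other islet cells they arise from progenitors that pass through a phase of *Neurog3* expression. Pax4 opposes the alpha fate, and the convertase encoded by *Pcsk2* cuts proglucagon to glucagon.

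The pancreata were from mouse embryos of 3 stages, E12.5, E14.5 and later E17.5 (E for embryonic day), pooled from litters before loading, so each library is 1 pool. Version 1 of the capture kit was used for all live cells of Swiss Webster embryos, with 1 library at E12.5, 2 batches at E14.5 and 1 library at E17.5. The version 1 E12.5 and E17.5 libraries belong to batch 2, collected on another day than batch 1. Version 2 was used for Swiss Webster live cells negative for CD140a, a sort that removes much of the mesenchyme, with 1 library at each of the 3 stages. The E17.5 version 2 library was loaded in 2 wells of the same suspension, which were added together. The last library was E14.5 Fev-Cre; ROSA26mTmG, in which cells express membrane tdTomato until Cre, driven by the *Fev* gene, switches them to membrane GFP for good. Its live GFP+ and tdTomato+ cells were collected separately by sorting and captured with version 2. Kit and CD140a sort cannot be told apart among the Swiss Webster libraries, and stage goes with litter and with a longer dissociation.

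The sequences before the transcription starts of 3 hormone genes are shown because the choice of alpha cells rests on *Gcg* and the check of their name partly on *Pyy* and *Gast*. They are the 250 bases upstream of the RefSeq start on GRCm38.p6, for *Gcg* at chr2:62483654-62483903 (minus strand), for *Pyy* at chr11:102107833-102108082 (minus strand, the first of 2 starts) and for *Gast* at chr11:100334157-100334406 (plus strand). Capitals mark TAAT or ATTA, the same 4 letters read on either strand and the core that homeodomain proteins of the Pdx1 kind prefer.
Gcg: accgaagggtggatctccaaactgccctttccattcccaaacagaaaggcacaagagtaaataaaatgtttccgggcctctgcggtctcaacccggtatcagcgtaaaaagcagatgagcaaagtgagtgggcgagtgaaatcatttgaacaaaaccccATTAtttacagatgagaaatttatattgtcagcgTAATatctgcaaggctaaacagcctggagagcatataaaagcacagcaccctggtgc
Pyy: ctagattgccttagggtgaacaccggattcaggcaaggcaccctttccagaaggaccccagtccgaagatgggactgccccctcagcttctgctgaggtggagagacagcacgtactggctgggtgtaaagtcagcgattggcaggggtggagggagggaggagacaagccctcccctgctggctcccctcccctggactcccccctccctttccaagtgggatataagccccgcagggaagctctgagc
Gast: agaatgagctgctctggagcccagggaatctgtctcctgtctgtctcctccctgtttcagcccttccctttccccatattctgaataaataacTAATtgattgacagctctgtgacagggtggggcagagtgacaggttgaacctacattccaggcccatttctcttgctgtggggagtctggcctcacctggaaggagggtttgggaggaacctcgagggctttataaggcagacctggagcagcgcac
The *Gcg* sequence held 2 matches, which begin 91 and 57 bases before the start, and it also held TATAAA, read on the strand of the gene alone, at 24 bases. *Gast* held 1 match, 157 bases before the start, and *Pyy* held 0. Of 32851 mouse promoter windows of RefSeq 54.9% held at least 1 match and 30.8% held 2 or more, and TATAAA was found in 7.59% of them. A match is a string of letters and not a shown binding site.

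Alpha cells were present in every library, with 43 in version 1 E12.5, 29 and 30 in the version 1 E14.5 batches, 6 in version 1 E17.5, 225, 100 and 252 in the version 2 libraries of the 3 stages, and 547 in Fev-Cre. As a share of alpha and other *Chga* cells they made up 54.4% (exact 95% binomial interval 42.8 to 65.7) and 35.8% (32.1 to 39.7) at E12.5. At E14.5 the shares were 12.9% (8.84 to 18.1), 11.03% (7.57 to 15.4) and 9.14% (7.50 to 11.01), and in the Fev-Cre library, where the sort sets the mixture, 18.96% (17.54 to 20.4). At E17.5 the share was 2.60% (0.959 to 5.57) in version 1 and 12.8% (11.3 to 14.3) in version 2, whose wells gave 12.4% and 13.1%. Both E12.5 libraries lay above all other libraries, and the E17.5 libraries of the kits did not overlap. These intervals cover counting error only. With cells thinned to 2000 UMIs each, the mean share over the 8 libraries was 23.6%, compared with 19.7% (SD 17.1) without thinning. The share in version 2 E12.5 then rose from 35.8% (225 of 628) to 54.5% (175 of 321), compared with 56.9% in version 1 E12.5. After thinning, alpha cells still needed 1 *Chga* UMI and other cells 2. The part of these unequal limits in the rise was not tested.

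**Figure D1:**
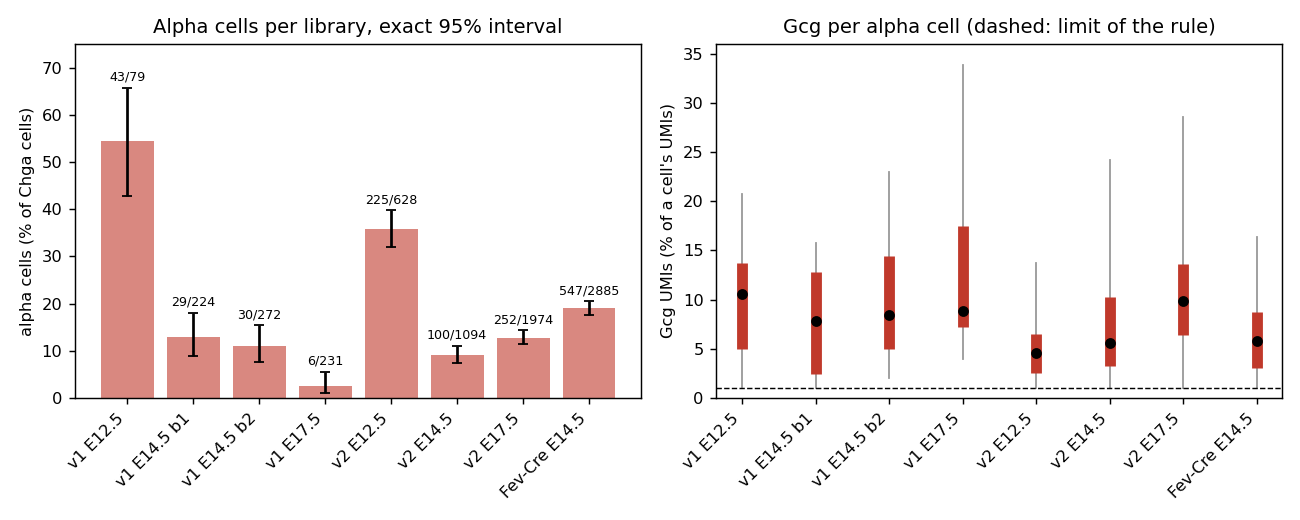
Left, alpha cells as a percentage of alpha and other Chga cells in each of the 8 libraries, with exact 95% binomial intervals and the counts. Right, the percentage of an alpha cell's UMIs that came from Gcg, with the median of each library as a point. Thin lines run from the lowest to the highest cell, thick bars span the quartiles, and the 1% limit of the rule is dashed. The E12.5 libraries have the highest shares (54.4% and 35.8%), and the highest single cell, at 33.9% Gcg, is in version 1 E17.5.

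*Gcg* took up a large part of the RNA of an alpha cell. The median was 10.6% of a cell's UMIs in version 1 E12.5, 7.83% and 8.41% in the version 1 E14.5 batches, 8.81% in the 6 cells of version 1 E17.5, 4.60%, 5.57% and 9.90% in version 2 from E12.5 over E14.5 to E17.5, and 5.78% in Fev-Cre. The order of the stages differed between the kits, since E12.5 was highest in version 1 and lowest in version 2. Between 1% and 2% *Gcg* there were 154 alpha cells (median 1.53%), and 100 cells that met every other limit lay between 0.5% and 1% (median 0.778%). The nearest cells on either side had 1.00% and 0.996%. In mesenchymal cells (no *Chga*, at least 5 *Col3a1* UMIs), which should lack glucagon, *Gcg* stood at 12.2 to 279 CPM, where CPM is the UMI count per 1000000 UMIs in the sum of all cells of 1 class and library. In alpha cells it stood at 44956 to 149695 CPM.

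The name alpha cell was checked against 4 further markers, *Ttr*, *Irx2*, *Gast* and *Pyy*. These had been picked from earlier results of the same data, so their levels are a description with no test. Levels of single genes outside the limits are CPM with the 7 genes of the limits left out of the total, and a list of lowest, median and highest covers the 7 libraries with at least 20 alpha cells. *Ttr* (transthyretin, a carrier of thyroid hormone and retinol-binding protein) was at 11399, 13701 and 18198 in alpha cells against 3169.8, 4086 and 10528 in other *Chga* cells, with no overlap. *Pyy* (peptide YY, a gut and islet hormone) was at 9229.8, 19646 and 27477 against 4026, 7786 and 8782, again with no overlap. *Irx2*, an Iroquois homeodomain factor of alpha cells, was at 106, 317 and 470.1 against 11.8, 51.9 and 201, and *Gast* (gastrin, a stomach hormone that the fetal pancreas also makes) at 401, 1117 and 2193 against 92.2, 439 and 574. Both overlapped between the classes, but within each of the 7 libraries all 4 genes were higher in alpha cells. Against ghrelin cells *Ttr* alone of the 4 was higher by at least 2-fold, again as a description. An *Irx2* UMI was found in 77.2% of alpha cells, 17.48% of other *Chga* cells and 0.642% of mesenchymal cells, whose median depths were 9007, 7807 and 5261 UMIs. After thinning to 2000 UMIs, which left out 5 alpha cells, the shares were 36.2%, 7.02% and 0.189%.

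In the Fev-Cre library 546 of 547 alpha cells (99.8%, exact 95% interval 98.99 to 99.995) held an *eGFP* UMI, at 1718 CPM of all UMIs. The share was 99.7% in insulin cells, 89.2% (33 of 37) in ghrelin cells and 89.0% in other *Chga* cells. In mesenchymal cells 14.49% held 1, at 24.2 CPM and a median depth of 6751.5 UMIs against 8903 in alpha cells, which gives the background. *tdTomato* was found in 2.38% of alpha cells against 10.6% of mesenchymal cells. GFP was also what the cells were sorted on, so these shares are set in part by the sort.

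Many alpha cells carried a second hormone transcript at a sizeable level. Of 8882 mesenchymal cells, which should lack these hormones, at most 0.158% reached the limits used here for any of the 5 genes that follow, and in single libraries at most 1.38% (*Pyy* in version 2 E14.5). *Pyy* reached 0.3% of a cell's UMIs in 81.1% of the 1232 alpha cells and in 36.4% of other *Chga* cells, and the share in alpha cells ran from 69.7% in Fev-Cre to 94.7% in version 2 E12.5. *Gast* reached 0.3% in 11.4% of alpha cells, with the highest shares at E14.5 (24.1%, 10%, 19% and 17.2% in its 4 libraries). The shares were 4.65% and 4.44% in the E12.5 libraries and 2.38% in version 2 E17.5. In other *Chga* cells *Gast* was also most frequent at E14.5 (3.59%, 2.89%, 3.12% and 5.13%), with 2.78% and 1.99% at E12.5 and 0.290% in version 2 E17.5. *Ppy*, the pancreatic polypeptide gene, which lies next to *Pyy* on chromosome 11, reached 0.3% in 5.36% of alpha cells and in 15.9% (40 of 252) of those of version 2 E17.5, against 0.889% in version 2 E12.5 and 4% in version 2 E14.5. In version 1 the shares were 4.65% at E12.5 and 17.2% and 10% in the E14.5 batches, and in Fev-Cre 1.65%, so the E14.5 libraries ranged from below version 1 E12.5 to above version 2 E17.5. *Sct*, the gene for the gut hormone secretin, was most frequent at E12.5. It reached 0.1% in 62.8% and 61.3% of alpha cells of the E12.5 libraries, in 3.29% to 13.8% of those at E14.5 and in 2.38% of those of version 2 E17.5. *Iapp* (islet amyloid polypeptide, which beta cells secrete with insulin) reached 0.1% in 23.3% and 30.7% at E12.5 and in 79.0% in version 2 E17.5. *Sct* and *Iapp* had the same order over stages in other *Chga* cells. There *Iapp* reached its limit in 8.33% and 9.68% at E12.5 and 65.9% in version 2 E17.5, *Sct* in 38.9% and 20.1% against 0.174%, and *Ppy* in 0% and 0.248% at E12.5, 1.15% to 2.92% at E14.5 and 4.24% in version 2 E17.5.

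Against other *Chga* cells, alpha cells differed in 888 of 11851 tested genes, of which 302 were higher and 586 lower. A gene was called when its Benjamini-Hochberg adjusted p over all genes tested was under 0.05 and the difference at least 2-fold, in edgeR's quasi-likelihood test on sums per class over 7 libraries with library as a block. By this rule 7.49% of genes were called, 2.55% as higher and 4.94% as lower, and the median log2 fold of all genes was -0.03. When only other *Chga* cells with at most 1 *Col3a1* UMI were used, a choice made after seeing the data, 303 genes were higher and 377 lower. The other *Chga* cells are themselves a mixture, since a *Fev* UMI was present in 25.03% to 70.7% of them by library, a *Neurog3* UMI in 11.1% to 28.5%, and insulin of the level that defines insulin cells in 0% to 42.7%. Some of them held *Gcg* at the level asked of alpha cells and were kept out of that class by another limit, 8 of 36 in version 1 E12.5, 68 of 403 in version 2 E12.5, 108 of 1722 in version 2 E17.5 and 57 of 2338 in Fev-Cre. With other *Chga* cells held under 0.1% *Gcg*, 411 genes were higher and 631 lower. All classes were set by hormone levels of the same cells, so the p-values describe how steadily a gene differed over libraries.

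The genes with the largest differences in the same direction in all 7 libraries included both Iroquois factors and several secreted or surface proteins. *Irx1*, on chromosome 13 beside *Irx2*, was at 121, 192 and 375 CPM in alpha cells and 10.1, 23.6 and 111 in other *Chga* cells (log2 fold 2.94 ± 0.25, adjusted p = 5.57e-07), and the groups did not overlap. *Edn3*, the peptide endothelin 3, was at 98.5, 117 and 174 against 9.12, 20.7 and 52.9 without overlap (log2 fold 2.64 ± 0.25, adjusted p = 1.56e-06). *Dpp4* encodes the surface protease that inactivates the incretin GLP-1, itself a product of proglucagon. It was at 66.5, 88.6 and 169 CPM in alpha cells and 15.6, 18.8 and 32.4 in other *Chga* cells (log2 fold 2.07 ± 0.13, adjusted p = 2.45e-08), again without overlap. *Spink4*, a protease inhibitor of mucous cells, differed by a log2 fold of 2.72 ± 0.21 and *Hpgds*, a prostaglandin D synthase, by 2.44 ± 0.20. Others of the 12 largest were *Map3k15* (2.17 ± 0.19), *Wnk3* (2.13 ± 0.19), *Nxph1* (2.08 ± 0.24), *Gm11716* (2.06 ± 0.22), *Lgals2* (2.05 ± 0.15) and *Plac1* (2.005 ± 0.31), each log2 fold with its SE.

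The 12 largest log2 folds in the other direction held genes of several kinds. *Neurog3*, which starts the endocrine programme, was at 9.39, 24.99 and 38.2 CPM in alpha cells and at 139, 259 and 789.8 in other *Chga* cells (log2 fold -3.21 ± 0.24, adjusted p = 1.84e-07), with no overlap. Of its 336 UMIs in alpha cells 58.6% came from 5 cells. *Pax4*, which opposes the alpha fate, was at 2.20, 6.81 and 9.39 against 44.7, 63.5 and 147 (log2 fold -3.35 ± 0.20, adjusted p = 1.51e-08), also with no overlap. *Nnat* (neuronatin, an imprinted gene active in beta cells) was at 28.2, 88.6 and 149 against 616, 1093 and 5511 (log2 fold -4.09 ± 0.46, adjusted p = 8.77e-06). *Fam159b* had 6 UMIs in 6 alpha cells and 1546 UMIs in 636 other *Chga* cells (log2 fold -5.16 ± 0.40, adjusted p = 2.05e-07). The rest of the 12 were *Dpysl3* (-3.12 ± 0.28), *Tlx2* (-3.004 ± 0.31), *Fam151a* (-2.95 ± 0.32), *Stmn2* (-2.91 ± 0.28), *Car2* (-2.64 ± 0.38), *Spock2* (-2.58 ± 0.30), *Npepl1* (-2.58 ± 0.17) and *Col1a1* (-2.50 ± 0.21). *Col1a1*, a mesenchymal collagen, came to -0.11 against other *Chga* cells held to the same *Col3a1* limit, and 73 of the 100 *Stmn2* UMIs of alpha cells were in 1 cell.

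**Figure D2:**
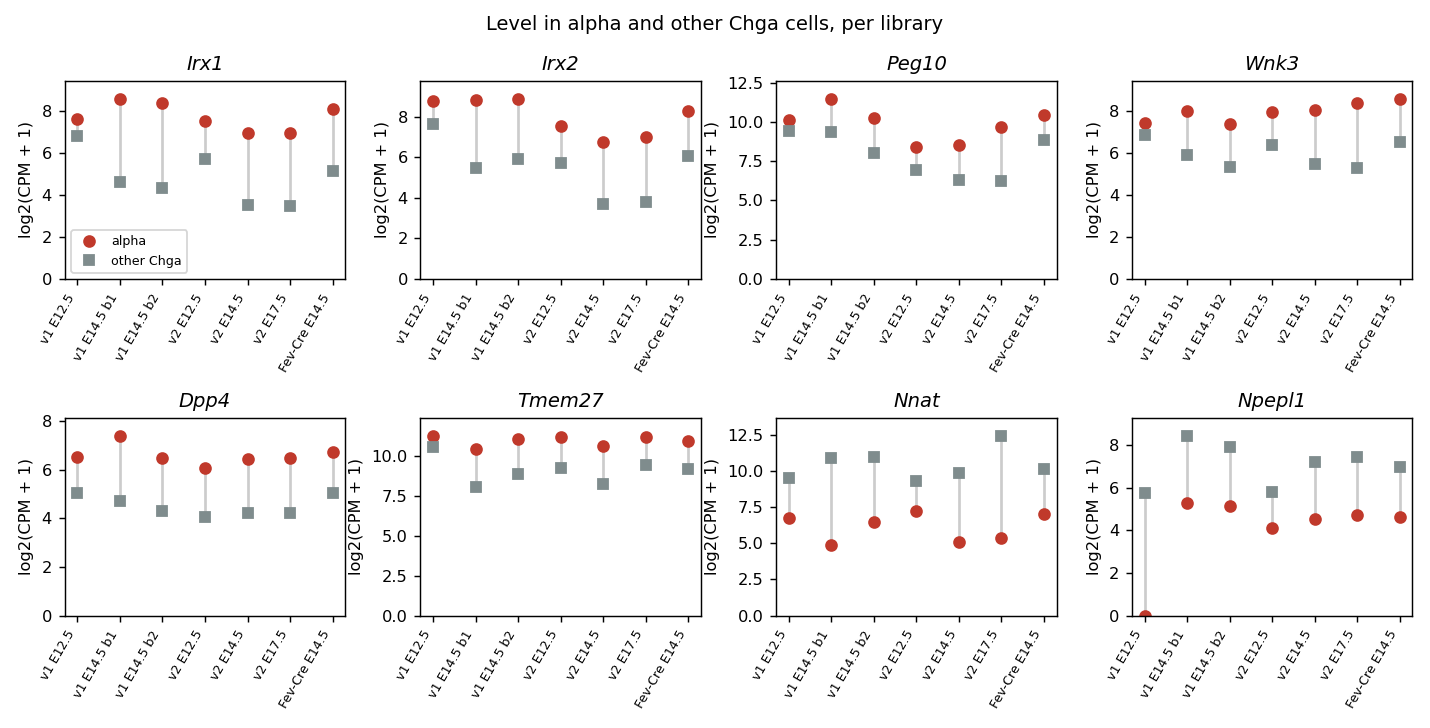
Level of 8 genes in alpha cells (circles) and other Chga cells (squares), as log2(CPM + 1) on the vertical axis, in each of the 7 libraries with at least 20 alpha cells, which stand along the horizontal axis and are joined by a grey line between classes. Irx1, Irx2, Peg10, Wnk3, Dpp4 and Tmem27 are higher in alpha cells, and Nnat and Npepl1 are lower.

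Transcription factors and other regulators that earlier work or the study itself ties to the alpha lineage were mostly higher. Against other *Chga* cells 7 of 10 were called higher and 0 lower, with a median log2 fold of 1.72. Of those called higher, *Irx1*, *Wnk3*, *Peg10*, *Smarca1* and *Auts2* were named by the study on its alpha branch, from the same libraries. *Irx2* had been picked from earlier results of these data, so the direction of the list is not independent. *Peg10*, an imprinted retrotransposon-derived gene, was at 340.0, 1099 and 2816 CPM against 73.03, 254 and 672 (log2 fold 1.97 ± 0.20, adjusted p = 3.57e-06), with overlap between groups. *Etv1*, an ETS factor, was at 177, 258 and 565 against 37.6, 76.1 and 101 with no overlap (log2 fold 2.004 ± 0.16, adjusted p = 2.05e-07), and *Wnk3*, a kinase that regulates ion cotransporters, at 164, 253 and 380.4 against 38.4, 59.05 and 116 with no overlap. *Smarca1*, a chromatin remodeller, differed by 1.47 ± 0.20 and *Auts2* by 1.08 ± 0.22, the latter being higher in 5 of 7 libraries and under the 2-fold limit without version 1 E14.5 batch 2 (0.99) or version 2 E17.5 (0.88). *Pou3f4* (0.74 ± 0.16), *Meis2* (0.37 ± 0.15) and *Tshz1* (-0.07 ± 0.12) were not called.

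Regulators of beta and delta cells were lower in 6 of 8 tested and higher in 1, with a median log2 fold of -1.79. *Pdx1*, a master factor of beta cells, differed by -1.87 ± 0.24, *Mnx1* by -1.82 ± 0.29, *Nkx6-1* by -1.46 ± 0.24 and *Hhex*, the delta cell factor, by -2.05 ± 0.26. The member that was higher was *Nkx6-2* (1.82 ± 0.37). *Gng12*, a G protein subunit that the study placed on the beta branch, was at 46.8, 65.3 and 93.4 CPM against 60.96, 318 and 469 (log2 fold -1.77 ± 0.23, adjusted p = 4.05e-05). Of 16 genes of progenitors 7 were lower and 0 higher, including *Fev*, the serotonergic transcription factor that marks late endocrine progenitors, at 38.6, 109 and 150.2 CPM against 43.95, 321 and 730.4 (log2 fold -1.54 ± 0.20, adjusted p = 3.26e-05). A *Fev* UMI was still found in 47.7% of alpha cells, compared with 51.7% of other *Chga* cells and 1.24% of mesenchymal cells. These shares pool all libraries, and 547 of the 1232 alpha cells came from Fev-Cre. In other *Chga* cells the share ran from 25.03% to 70.7% by library. The pooled shares were not matched for depth, with medians of 9007 UMIs in alpha cells and 7807 in other *Chga* cells. Factors shared by all endocrine cells, such as *Pax6* and *Neurod1*, gave 1 lower and 0 higher of 12 (median -0.41), and *Isl1* stood at 0.58 ± 0.08, not called.

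**Figure D3:**
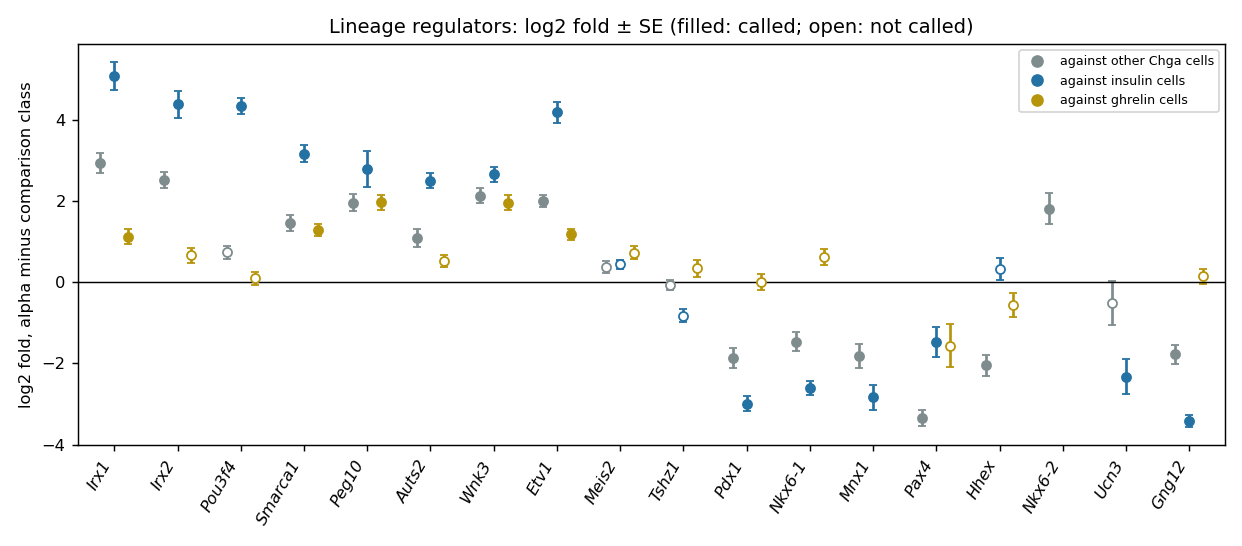
Log2 fold with SE of lineage regulators between alpha cells and, in turn, other Chga cells, insulin cells and ghrelin cells. Filled points passed the test with at least 2-fold and open points did not. Irx1, Wnk3, Peg10, Etv1 and Smarca1 are filled above 0 in all 3 comparisons, and Pou3f4 only against insulin cells.

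Among 18 hormone and peptide genes outside the rule 7 were higher and 3 lower against other *Chga* cells. The 7 include *Gast*, *Ttr* and *Pyy*, which had been picked from earlier results of these data, so the count is a description. *Sct* was at 188, 445 and 1886 CPM in alpha cells and 25.7, 164 and 1090.3 in other *Chga* cells (log2 fold 1.68 ± 0.18, adjusted p = 3.97e-06), and *Ppy* at 222, 435 and 1867 against 21.2, 134 and 664 (log2 fold 1.65 ± 0.25, adjusted p = 1.66e-04). Both ranges overlapped. *Resp18*, a protein of endocrine secretory granules, was at 203, 299.8 and 689.7 against 88.1, 139 and 183 with no overlap (log2 fold 1.40 ± 0.14, adjusted p = 3.28e-06). *Npy* (-4.15 ± 0.82) and *Penk* (-3.80 ± 0.65), the genes for neuropeptide Y and proenkephalin, were lower. The granule proteins and prohormone processing enzymes had 3 of 17 lower and 0 higher, although the median log2 fold of the list was 0.42, against -0.03 over all genes. Over the alternatives of processing 1 to 3 were lower and 0 to 2 higher. *Chgb*, chromogranin B, was at 805, 1444 and 3436 CPM against 2307, 6049.6 and 8857 (log2 fold -1.67 ± 0.20, adjusted p = 1.32e-05). *Pcsk1*, the convertase that yields GLP-1 from proglucagon and processes insulin, was at 24.6, 65.7 and 116 against 34.5, 168 and 331 (log2 fold -1.46 ± 0.32, adjusted p = 0.00429), and its log2 fold without version 2 E17.5 was -0.91, under the limit. *Pcsk2*, the convertase of the glucagon pathway, was at 733, 1164 and 2699.7 against 255, 667 and 1832, a log2 fold of 0.90 ± 0.12 that fell short of the 2-fold limit. The third lower gene, *Ero1lb* (-1.15 ± 0.32), lost its call without version 2 E17.5 (-0.64) or without Fev-Cre (adjusted p = 0.0759).

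Amino acids stimulate glucagon secretion, and their carriers were among the transporters that differed, where 5 of 16 were higher and 4 lower. The median log2 fold of the list was -0.04, against -0.03 over all genes. Over the alternatives of processing 1 to 5 were higher and 0 to 4 lower. *Slc38a5*, a glutamine transporter of alpha cells, was at 2289.9, 7228 and 17988 CPM against 946, 3156 and 15719.9 (log2 fold 1.24 ± 0.13, adjusted p = 5.12e-06). *Slc16a10*, a transporter of aromatic amino acids, was at 52.5, 116 and 178 against 18.3, 47.6 and 62.00 (log2 fold 1.43 ± 0.11, adjusted p = 2.05e-07). The ranges of *Slc38a5* overlapped, with both classes highest in version 1 E12.5, and alpha cells were higher in each of the 7 libraries. *Slc7a2*, *Slc7a14* and *Slc7a8* differed by 1.35 ± 0.15, 1.22 ± 0.12 and 1.07 ± 0.20, whereas *Slc38a1* was lower (-2.31 ± 0.19). *Slc2a2*, the glucose transporter of beta cells, was lower as well (-3.30 ± 0.38). *Tmem27* (collectrin, which aids the placement of amino acid transporters in the kidney) was at 1418, 2159.9 and 2516 against 269, 579.8 and 1524 (log2 fold 1.84 ± 0.14, adjusted p = 2.05e-07). Over the alternatives of processing 4 to 11 of 20 genes known from adult alpha cells were higher and 0 to 2 lower. In the reported fit 9 were higher and 1 lower, against 2.55% higher and 4.94% lower of all genes tested. The largest were *Rgs4*, a brake on G protein signalling, at 42.4, 122 and 186 CPM against 13.8, 20.7 and 58.2 (log2 fold 2.55 ± 0.31, adjusted p = 2.15e-05), *Sv2b*, a synaptic vesicle protein (2.39 ± 0.42), and *Dpp4*, given above. Among G protein-coupled receptors *Adra2a*, the adrenergic receptor that inhibits insulin release, was lower (-4.39 ± 0.36), as was the glucagon receptor gene *Gcgr* (-1.45 ± 0.47), and *Sstr2*, a somatostatin receptor through which glucagon release is inhibited, was higher (2.04 ± 0.32).

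Genes of S phase gave 1 lower of 19 and those of G2 and M phase 4 lower of 20, with 0 higher in both. The 4 calls of G2 and M phase (*Nusap1*, *Aurkb*, *Plk1* and *Ube2c*) were all lost under DESeq2 and also without Fev-Cre, and over the alternatives of processing 0 to 11 genes of that list were lower. The summed G2 and M level was lower in alpha cells in 5 of 7 libraries (mean log2 difference -0.51, SD 1.02). In an exact two-sided sign-flip permutation test over the 7 libraries this gave p = 0.266, as did S phase, and the adjusted value over 4 measures compared was 0.266 for each, where the smallest possible p was 0.0156. *Mki67*, a gene of dividing cells, was found in 7.95% of alpha cells, 10.7% of other *Chga* cells and 18.5% of mesenchymal cells. Depth per cell, another of the 4 measures, differed by a mean log2 of 0.13 (p = 0.188 in the same exact permutation test), with medians of 3550 to 11524 UMIs by library in alpha cells and 3023 to 12190 in other *Chga* cells. The fourth, the median mitochondrial share, could be compared in 4 libraries and was higher in alpha cells in 3 of them (mean log2 difference 0.21, exact permutation p = 0.25, the smallest possible being 0.125). *Cdkn1a* (-1.26 ± 0.23) and *Cdkn1c* (-1.40 ± 0.14), inhibitors of the cell cycle, were lower in alpha cells, but neither call held throughout. *Cdkn1a* came to -0.98, under the limit, without version 2 E17.5, and *Cdkn1c* to -0.62 against other *Chga* cells held to the same *Col3a1* limit as alpha cells.

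Transcripts of other cell types were present in both classes. The summed level of acinar markers in alpha cells ran from 66.7 to 7843 CPM of all UMIs by library and in other *Chga* cells from 122 to 6511, and 2 of 6 acinar genes (*Prss2* and *Rbpjl*) were lower in alpha cells, a call that neither kept without Fev-Cre. Erythroid markers, all of them haemoglobin genes apart from *Alas2*, stood at 3.63 to 36185 CPM in alpha cells and 4.43 to 44287 in other *Chga* cells. Immune markers stood at 3.24 to 283 against 5.09 to 81.6 CPM and mesenchymal markers at 17.9 to 84.3 against 34.8 to 537. Endothelial markers reached at most 20.7 and neural markers at most 20.4 CPM in alpha cells, and *Pdgfra*, which marks mesenchyme, was at 0 in 5 of 7 libraries. Of 4 mesenchymal genes tested 3 were lower in alpha cells, where the *Col3a1* limit held for alpha cells alone. Of the 1232 alpha cells 38 carried genes of another compartment at 30% or more of the median level in cells of that compartment, 16 of them erythroid, 11 immune, 9 acinar, 1 endothelial and 1 neural. Barcodes found in more than 1 library numbered 50 among alpha cells, and 0 were alpha cells in both. When cells with genes of another compartment were left out of both classes, 788 genes were called against other *Chga* cells, 288 higher and 500 lower.

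Alpha cells and insulin cells were set side by side in the 5 libraries with 20 cells of each, which were the version 1 E14.5 batches 1 and 2, version 2 E14.5 and E17.5, and Fev-Cre. There 945 of 10278 genes were called (9.19%), 455 higher (4.43%) and 490 lower (4.77%) in alpha cells. The alpha regulators gave 8 higher and 0 lower of 10, with a median log2 fold of 2.99 against 0.02 over all genes. Most of these regulators were named by the study or picked from these data, so the count is a description. In the order of libraries just given, *Pou3f4*, a POU factor of alpha cells, was at 150.2, 170.3, 128, 139 and 193 against 6.20, 0, 10.1, 4.59 and 10.1 (log2 fold 4.34 ± 0.20, adjusted p = 5.54e-12). The classes did not overlap, whereas the gene had missed the limit against the mixed *Chga* cells. *Irx1* (5.08 ± 0.35), *Irx2* (4.38 ± 0.33), *Etv1* (4.19 ± 0.27), *Peg10* (2.80 ± 0.44) and *Wnk3* (2.66 ± 0.18) were higher too. *Fev* was not called (0.12 ± 0.16).

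Genes among the 6 largest log2 folds above insulin cells were *Nxph1*, a secreted ligand of neurexins (6.63 ± 0.36), *Rgs4* (5.72 ± 0.22), *Irx1*, *Ctxn2* (4.93 ± 0.31) and *Gk*, glycerol kinase (4.40 ± 0.35). For *Rgs4* the levels were 122, 164, 167, 186 and 108 CPM in alpha cells against 0, 0, 3.58, 3.57 and 1.16 in insulin cells. Those furthest below were *Npy* (-7.75 ± 0.30), *Sytl4*, the granule docking protein granuphilin (-7.51 ± 0.23), *Tmem215* (-7.01 ± 0.32), *Nnat* (-6.85 ± 0.31), *Syndig1l* (-6.66 ± 0.33) and *Frzb*, a Wnt antagonist (-6.22 ± 0.35). *Npy* was at 0, 0, 10.9, 6.61 and 13.7 in alpha cells and at 2883, 3854, 1979, 3297 and 1252 in insulin cells, so the classes were far apart in each library. *Iapp* was at 5144, 8803, 3026, 9236 and 7018 CPM in alpha cells and at 20963, 23572, 12756, 51069 and 25712 in insulin cells (log2 fold -2.04 ± 0.12, adjusted p = 1.14e-10), with 19.4, 8.10, 12.2, 49.5 and 145 in mesenchymal cells. Of 22 genes of ion channels and glucose handling 6 were lower and 2 higher, with a median log2 fold of -0.05. Over the alternatives of processing 2 to 6 were lower and 0 to 2 higher. Lower members were *Slc2a2* (-5.50 ± 0.23) and *G6pc2* (-2.81 ± 0.29). Of 14 G protein-coupled receptors 5 were lower, among them *Adra2a* (-5.95 ± 0.28), and 1 was higher, with 0 to 5 lower over the alternatives. Over all genes 4.77% were lower and 4.43% higher. *Gng12* was lower by a log2 fold of -3.42 ± 0.15. Of 4 immune genes tested 3 were higher in alpha cells, whose summed immune level in the 5 libraries, in the same order, was 26.03, 103, 283, 98.7 and 16.03 CPM against 5.48, 17.7, 33.1, 33.1 and 12.7 in insulin cells. Alpha cells were higher in each of the 5. With cells carrying genes of another compartment left out, *Lyz2* came to -0.51 and *Tyrobp* to 0.33, neither called, and without version 2 E14.5 *Tyrobp* and *Rac2* lost their calls.

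Chaperones and enzymes of protein folding in the endoplasmic reticulum were lower in alpha cells than in insulin cells as a list. Of 20 genes 16 were lower and 0 higher, with a median log2 fold of -1.62, where 4.77% of all genes were lower. The list was chosen with earlier results of these data known, so the count is a description. *Hspa5* (BiP, the main chaperone of the compartment) was at 986, 919.8, 932, 619.5 and 758 CPM in alpha cells and at 2964, 2679, 2399.6, 3339 and 2094 in insulin cells (log2 fold -1.75 ± 0.14, adjusted p = 1.20e-08). *Sdf2l1*, a partner of BiP, was at 197, 198, 153, 70.9 and 119 against 1488, 1379, 835, 1416 and 713 (log2 fold -3.12 ± 0.22, adjusted p = 2.03e-09). The lowest insulin value of each gene lay above the highest alpha value. *Creld2* (-2.90 ± 0.17), *Dnajb9* (-2.18 ± 0.17), *Dnajb11* (-2.09 ± 0.15), *Manf* (-2.004 ± 0.14), *Calr* (-1.70 ± 0.13) and *Hsp90b1* (-1.47 ± 0.16) followed the same direction, and *Ero1lb*, the insulin-associated oxidoreductase listed with the granule enzymes, was lower by -3.19 ± 0.15. Median depth in the 5 libraries was 3550, 5462.5, 6273.5, 11524 and 8903 UMIs in alpha cells and 4067, 6577.5, 6945, 21334 and 8964 in insulin cells, so it was lower in alpha cells in each, most of all in version 2 E17.5. The median mitochondrial share of UMIs, which only version 2 and Fev-Cre provide, was 3.38%, 2.98% and 2.87% against 2.84%, 1.58% and 2.56%. The part of either in the list's difference was not tested. The stress factors *Xbp1* (-0.63 ± 0.12), *Ddit3* (-0.96 ± 0.18) and *Atf4* (-0.35 ± 0.14) were not called. Over all the alternatives of processing 13 to 17 members were lower than in insulin cells. Against other *Chga* cells 0 of 20 were called (median -0.48), and against ghrelin cells 1, *Creld2* (-1.07 ± 0.20), with a median of -0.54. The *Creld2* call was lost without version 2 E17.5 (-0.75). Over the alternatives 0 to 4 members were lower than in other *Chga* cells and 0 to 5 lower than in ghrelin cells. The difference between these comparisons was not tested.

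**Figure D4:**
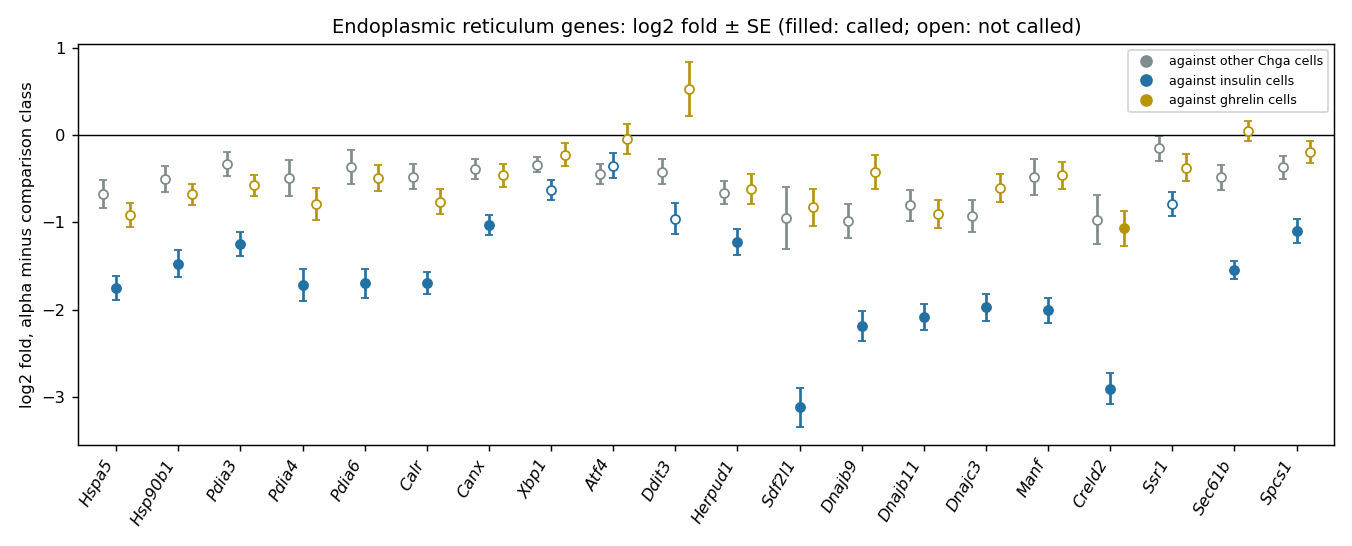
Log2 fold with SE of 20 genes of folding and stress in the endoplasmic reticulum between alpha cells and other Chga cells, insulin cells and ghrelin cells, with filled points called and open points not. Against insulin cells 16 are filled and lie below 0, with Sdf2l1 the lowest at -3.12, and against other Chga cells 0 are filled.

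Ghrelin cells, a hormone cell type of the embryonic islet, were compared in 4 libraries, the version 2 library of each stage in turn and Fev-Cre, where 417 of 8472 genes were called (4.92%), 226 higher (2.67%) and 191 lower (2.25%) in alpha cells. Ghrelin cells numbered 21, 61, 77 and 37 in these libraries. The alpha regulators gave 5 higher and 0 lower of 10, with a median log2 fold of 0.93. Over the alternatives of processing 1 to 5 were higher and 0 lower. These counts are a description too, since most of the regulators were named by the study or picked from these data. *Peg10* (1.97 ± 0.19), *Wnk3* (1.96 ± 0.18) and *Irx1* (1.12 ± 0.18) were higher. *Pou3f4* (0.10 ± 0.16) was not called. The markers picked from earlier results of these data are given as a description. Their log2 folds were 0.67 ± 0.19 for *Irx2*, 0.80 ± 0.18 for *Gast*, 0.78 ± 0.19 for *Pyy* and 2.21 ± 0.21 for *Ttr*. The *Peg10* levels were 340.0, 374, 811 and 1400.2 CPM in alpha cells and 163, 82.6, 124 and 417 in ghrelin cells, in the order of libraries just given.

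Of 16 granule and peptide processing genes 5 were higher and 0 lower in alpha than in ghrelin cells, and 11 were not called. Over the alternatives of processing 1 to 6 were higher. Among the 5 were *Pcsk2* (2.26 ± 0.20), *Chgb* (1.79 ± 0.25) and *Ptprn*, a granule membrane protein (1.24 ± 0.20). *Slc30a8*, the zinc transporter of islet granules, was at 31.5, 92.8, 361 and 104 CPM in alpha cells and 7.39, 2.17, 9.24 and 0 in ghrelin cells (log2 fold 5.13 ± 0.35, adjusted p = 3.85e-08), and its lowest alpha value lay above the highest of ghrelin cells. Of the 6 largest log2 folds above ghrelin cells the others were *Cpa3* (7.17 ± 0.64), *Cma1* (5.87 ± 0.36), *Gip* (4.58 ± 0.50), *Slc7a8* (4.31 ± 0.61) and *Ifih1* (4.25 ± 0.50). Over the libraries with at least 20 alpha cells, 45.6% of 1135 *Gip* UMIs of alpha cells were in 5 cells. *Cpa3* and *Cma1* encode proteases of mast cells and rested on few cells. In alpha cells 76.3% of 312 *Cpa3* UMIs were in 1 cell and 97.4% of 657 *Cma1* UMIs in 5 cells, 4 of 4 immune genes tested were higher and 3 of 6 acinar genes lower in this comparison, and neither protease was called by DESeq2. The largest log2 folds below ghrelin cells were those of *Irs4*, an insulin receptor substrate (-5.97 ± 0.41), *Stc2* (-5.01 ± 0.39), *Acsl1*, which activates fatty acids (-4.83 ± 0.27), *Cer1* (-4.34 ± 0.43), *Lrrtm3* (-4.17 ± 0.31) and *Cdkn1a* (-4.08 ± 0.36). *Irs4* was at 7.002, 0, 0.367 and 0.612 CPM in alpha cells and 148, 141, 199 and 56.1 in ghrelin cells. *Cdkn1a*, the cell cycle inhibitor p21, was at 389, 161, 59.2 and 97.7 against 1979.6, 4067, 3077 and 1329. Neither overlapped between the classes.

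Of 22 imprinted genes tested 3 were higher and 7 lower than in other *Chga* cells, against 2.55% higher and 4.94% lower of all genes. Over the alternatives of processing 1 to 3 were higher and 1 to 7 lower. The imprinted gene *Nnat*, given above, was lower by a log2 fold of -4.09 ± 0.46. The 3 that were higher lie together on chromosome 6. They were *Peg10* (chr6:4747306-4760517 on GRCm38), *Ppp1r9a* (chr6:4902872-5165661), the gene for the actin-binding protein neurabin, and *Asb4* (chr6:5383386-5433022), a ubiquitin ligase component. *Sgce* and *Casd1*, from the same stretch, were on the list as well. *Asb4* was at 46.9, 163 and 218 CPM in alpha cells and 7.81, 30.6 and 175 in other *Chga* cells (log2 fold 1.97 ± 0.24, adjusted p = 2.18e-05), and *Ppp1r9a* at 47.7, 65.7 and 128 against 25.1, 35.4 and 57.6 (log2 fold 1.11 ± 0.14, adjusted p = 2.25e-05). These ranges overlapped. Against insulin cells 5 of 22 were higher and 3 lower. *Peg10*, *Asb4* (2.68 ± 0.37) and *Ppp1r9a* (1.41 ± 0.24) were again higher, as were *Sgce* (2.53 ± 0.37) and *Zim1* on chromosome 7 (1.21 ± 0.17). Against ghrelin cells 4 of 21 were higher and 0 lower, namely *Asb4* (2.42 ± 0.32), *Ppp1r9a* (1.26 ± 0.18), *Peg10* and *Gnas* on chromosome 2 (1.30 ± 0.18). *Casd1* was called in none of the 3 comparisons (0.67 ± 0.14 against other *Chga* cells). Those comparisons share the alpha cells, so they are not independent of each other.

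Between E12.5 and E17.5 alpha cells changed in 198 of 8347 genes (2.37%), with 104 higher (1.25%) and 94 lower (1.13%) at E17.5. The fit used the 6 Swiss Webster libraries with at least 20 alpha cells and had a term for the kit, and E17.5 was represented by version 2 alone. The spread of E17.5 could therefore not be measured and was taken to be that of the other stages, so the adjusted p-values of this comparison rest on that assumption. The 6 alpha cells of version 1 E17.5 were left out of the fit, and 149 of the 198 genes (75.3%) had the same direction in both kits when they were counted. There was no term for batch. Batch 1 is a single library, so such a term would take it out of the comparison. The calls depended on single libraries, with 60 without version 2 E12.5 and 415 without version 1 E14.5 batch 1, which leaves batch 2 as the only version 1 batch, and on the kit term, with 16 without it. Of the 45 genes examined one by one, 40 lost their call under at least 1 alternative. The 45 were the largest differences and the called members of each list with the 4 largest log2 folds. Not every gene named here was among them, and *Fos* was not. Dissociation took 30 min at E17.5 and 10 min at E12.5, and 6 of 13 immediate-early and heat-shock genes tested, a list added after the results were seen, were higher at E17.5 and 0 lower. These were *Fos* (2.08), *Junb* (2.43), *Egr1* (1.81), *Zfp36* (2.14), *Btg2* (1.57) and *Hspa1a* (3.54), each as a log2 fold. *Fos* was at 47.1 and 95.4 CPM at E12.5, 165 to 518 at E14.5 and 327 in version 2 E17.5. Stage and dissociation cannot be told apart here. The *Gcg* rule limits what can be seen here, because a cell had to hold glucagon at every stage.

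Peptide genes other than *Gcg* differed between the stages in both directions, as a description with 1 library at E17.5. The median log2 fold of 14 genes tested was -0.88 (-2.04 to -0.80 over the alternatives of processing), against 0.02 over all genes. The levels follow for version 1 and version 2 at E12.5, then the version 1 E14.5 batches 1 and 2, version 2 E14.5 and Fev-Cre, which was not in the fit, and then version 2 E17.5. *Iapp* was at 1084, 1528, 5144, 8803, 3026, 7018 and 9236 CPM (log2 fold 3.03 ± 0.52, adjusted p = 6.47e-04) and *Ppy* at 435, 269, 1239, 627, 343, 222 and 1867 (log2 fold 3.01 ± 0.48, adjusted p = 3.16e-04). In the opposite direction, *Sct* was at 1886, 1435, 422, 491, 445, 345 and 188 (log2 fold -3.01 ± 0.52, adjusted p = 7.20e-04). *Cartpt*, the gene for the peptide CART, was at 1037, 638, 28.2, 81.8, 84.6, 106 and 27.2 (log2 fold -4.79 ± 0.57, adjusted p = 8.44e-06) and *Gip*, the incretin of the upper gut, at 127, 312, 37.5, 68.1, 32.8, 67.3 and 6.98 (log2 fold -5.15 ± 0.57, adjusted p = 4.06e-06). For *Sct* and *Cartpt* both E12.5 libraries lay above every later library. In the 6 version 1 E17.5 cells *Iapp* was at 8354, *Ppy* at 2247, *Sct* at 293, and *Cartpt* and *Gip* at 0. *Cck* (-3.01 ± 0.47), *Gal* (-3.04 ± 0.50) and *Npy* (-3.37 ± 0.56) were lower too. Some of these genes rested on few cells. Over the libraries with at least 20 alpha cells, 45.6% of 1135 *Gip* UMIs of alpha cells came from 5 cells. For *Npy* 1 cell held 94 of 258 UMIs. *Gip* reached 0.1% of a cell's UMIs in 2 of 43 alpha cells of version 1 E12.5 and 14 of 225 of version 2 E12.5. *Cartpt* did so in 3 of 43 and 33 of 225.

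Of genes that belong to the granule and to nutrient uptake, *Slc30a8* was at 50.8, 31.5, 84.5, 225, 92.8, 104 and 361 CPM in the same order (log2 fold 3.57 ± 0.44, adjusted p = 1.03e-05), with the highest level in version 2 E17.5. The lists that follow rest on 1 library at E17.5 and are a description. Each is given by its median log2 fold, with the range over the alternatives of processing. The median was 0.27 (0.20 to 0.41) for 17 granule and processing genes, with *Pcsk2* (2.04 ± 0.45) and *Scg2*, secretogranin 2 (2.65 ± 0.39), higher. For 20 genes of granule exocytosis it was 0.67 (0.49 to 0.71) and for 10 transporters 1.31 (1.06 to 1.35). Among the transporters *Slc7a8* (2.61 ± 0.60) and *Slc16a10* (1.53 ± 0.39) were higher and *Slc38a5* (-2.13 ± 0.53) lower. For the 10 alpha regulators the median was 0.91 (0.83 to 1.04), and *Meis2* (3.45 ± 0.45), *Smarca1* (2.04 ± 0.41) and *Auts2* (1.52 ± 0.40) were higher. *Meis2*, a homeodomain partner of Pbx and Hox proteins, was at 47.1, 87.96, 685, 811, 538, 1067 and 775 CPM, so the E14.5 libraries were already near the level of E17.5. *Irx1* (-0.20 ± 0.40), *Irx2* (-0.31 ± 0.40) and *Peg10* (1.47 ± 0.49) were not called, and neither were the markers *Ttr* (-0.16 ± 0.48), *Pyy* (0.15 ± 0.46) and *Gast* (-0.42 ± 0.55).

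The largest stage differences that went the same way in both kits were *Tmsb15b1* (6.30 ± 0.67), *Ctrb1* (4.75 ± 1.15), *Hs3st1* (3.999 ± 1.06), *Hbb-bs* (3.75 ± 0.56), *Tmsb15b2* (3.75 ± 0.62), *Calb1* (3.65 ± 0.69), *Hopx* (3.64 ± 0.89) and *Pla2g2f* (3.58 ± 0.57) on the higher side. Lower at E17.5 were *Gip*, *Cartpt*, *Ly6h* (-4.57 ± 0.51), and 5 genes given by their UMIs because they had 3 or fewer in the 252 alpha cells of version 2 E17.5. These were *Hbb-y* (5642 UMIs in version 2 E12.5 and 3 in version 2 E17.5), *Vtn* (112 and 0), *Mfap4* (124 and 2), *Hba-x* (143 and 3) and *Dll3* (64 and 3). *Stmn2* (89 and 1) also belongs with the largest, but its average log2 CPM of 3.99 was just under the minimum of 4 set for named genes, and 73 of its UMIs were in 1 cell. *Hbb-y* and *Hba-x* are embryonic and *Hbb-bs* adult haemoglobin genes, and *Ctrb1* is an acinar enzyme. Erythroid markers in alpha cells summed to 402 and 6615 CPM at E12.5 and to 36185 in version 2 E17.5, and 4523 of 5739 *Hbb-y* UMIs of alpha cells came from 1 cell. For *Hba-x* 1 cell held 104 of 154 UMIs. The part of other cells' RNA in these 4 genes was not tested. Limiting the account to genes that went the same way in both kits left out transcripts of mast cells (*Tpsb2*, *Tpsab1*, *Cma1*) and of acinar cells (*Rnase1*, *Cpb1*, *Cela2a*), named after their values were seen, whose fitted folds in favour of E17.5 were among the largest. The part of other cells' RNA in them was not tested either. *Tmsb15b1* and *Tmsb15b2* are near-identical copies, so reads may be split between them. *Vtn* (vitronectin) was at 54.4, 49.01, 18.8, 0, 38.2, 11.8 and 0 CPM in the order used above, and *Calb1* encodes the calcium buffer calbindin.

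**Figure D5:**
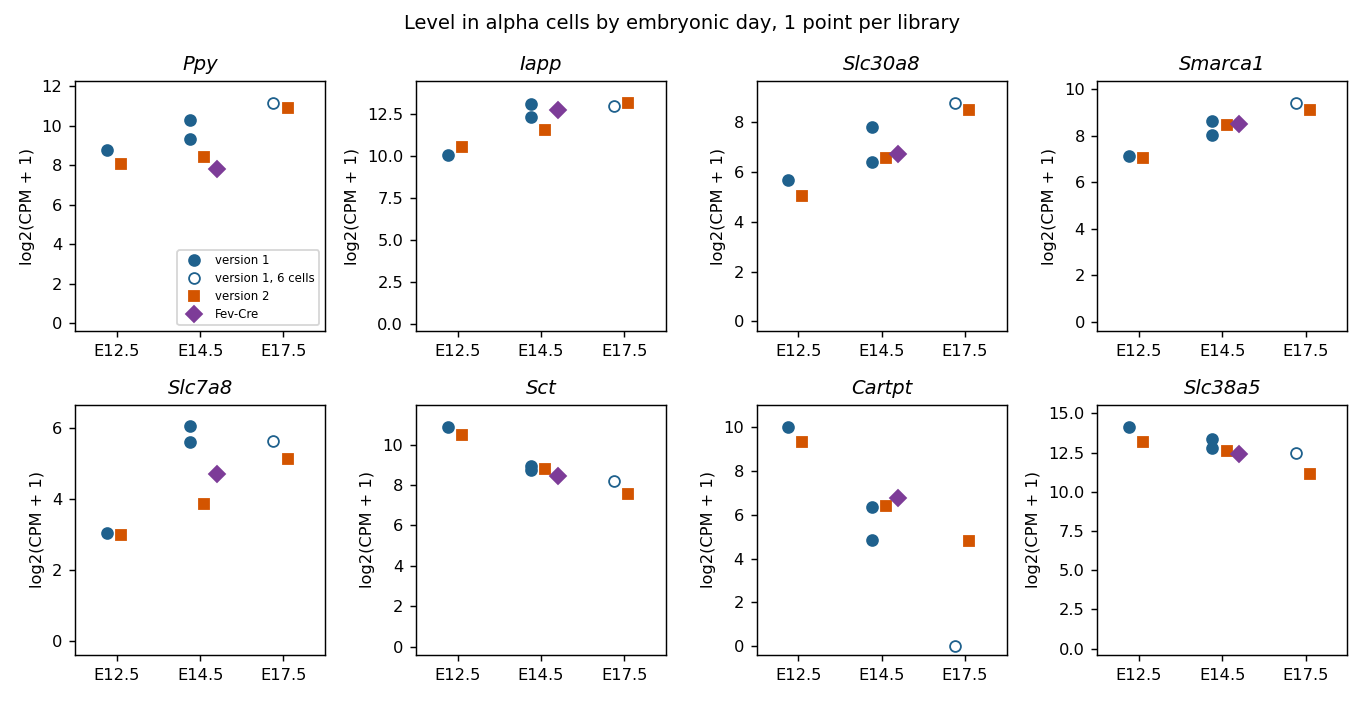
Level of 8 genes in alpha cells as log2(CPM + 1) on the vertical axis against embryonic day, with 1 point per library and symbols for version 1, version 2 and Fev-Cre. The open circle is version 1 E17.5 with 6 alpha cells. Sct and Cartpt are highest at E12.5, whereas Iapp and Slc30a8 are lowest there.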

How the data were processed

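The authors deposited UMI counts per gene and cell for 8 independent libraries, which they aligned to mm10 and counted with Cell Ranger, version 1.1 for kit version 1 and 2.1 for kit version 2, by the submitters' processing notes. For Fev-Cre the matrix aligned with the reporter sequences was used. Total UMIs per library were 15671934 to 26218989 in version 1, 83112158 to 127151679 in the version 2 stages and 77996305 in Fev-Cre.

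Cells were chosen by fixed limits, and the members and gene lists were chosen with earlier results of these data known. Counts were summed per library and class over 27716 genes found in every matrix. The 7 genes of the limits were left out of tests and totals. Sums were tested with edgeR 4.0.16 under R 4.3.3 (TMM scaling, genes filtered by expression), with DESeq2 1.42.0 as an alternative. Library was a block in the comparisons of classes, and kit was a term in that of stages. The fits were first run on simulated counts whose libraries differed in depth but not by kit or litter, so such differences were not part of that check. Each class needed 20 cells in a library. Every pool is 1 sample. In the comparisons between classes, p-values measure how the difference within a pool varied over pools. In the stage comparison they measure the spread between pools, which for the lone E17.5 library was assumed to be that of the others. Cells were read with Python 3.11.15, numpy 2.4.6, pandas 2.3.3 and scipy 1.17.1.

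The pairing rests on the fact that all classes in a library were captured from 1 suspension. As a check, gene levels of alpha and other *Chga* cells of a library correlated across genes at 0.615 to 0.893 after gene means were removed, against at most 0.545 between libraries. For insulin cells the values were 0.526 to 0.834 and 0.326, and for ghrelin cells 0.606 to 0.715 and -0.01.

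Named genes were the 4 markers given, the genes the study placed on its alpha branch, *Gng12* and *Fev*, list members called with the 4 largest log2 folds, and the 12, 6, 6 and 8 largest per direction in the 4 comparisons among genes of an average log2 CPM of 4 or more. Positions and promoters were taken from RefSeq on GRCm38.p6, and 393 of 400 names matched. Mitochondrial genes were at 0 in version 1. Other list members given as examples were chosen after their values were seen. Some items that this rule or the lists held are not reported here.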

Additional observations from a re-analysis of the deposited data

Results flagged for a closer look

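For 2 genes the difference between alpha cells and other *Chga* cells, as log2(CPM + 1), had 1 sign in both E12.5 libraries and the opposite sign in all 4 E14.5 libraries, and the difference between the stages was not tested. *Auts2* averaged -0.15 in the E12.5 libraries, compared with 1.38 in those of E14.5, a gap of -1.53. *Ero1lb*, the oxidoreductase of insulin-producing cells, went the other way, with 0.92 at E12.5 and -1.58 at E14.5, a gap of 2.504. In version 1 E12.5 the other *Chga* cells numbered 36 and had *Gcg* at 28556 CPM. No labelled group had the 4 to 10 libraries needed to look for a library far from the rest.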

How the results depend on the processing

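The fit with no replicate block called 202 genes against other *Chga* cells, 415 against insulin cells and 83 against ghrelin cells, and version 1 alone called 94 against other *Chga* cells and 234 against insulin cells. DESeq2 called 276 against ghrelin cells and 57 between the stages, and the stage fit with no kit term called 16. With 1 library left out at a time the counts were 556 to 983 (other *Chga* cells), 455 to 1058 (insulin cells), 246 to 465 (ghrelin cells) and 60 to 415 (stages). The lowest of each came without Fev-Cre, without version 2 E17.5 for both insulin and ghrelin cells, and without version 2 E12.5, and 617 genes were called against insulin cells without Fev-Cre. The stages could not be fitted without version 2 E17.5. *Lyz2*, an immune gene higher than in insulin cells, came to -0.51 when cells with genes of another compartment were left out. With no filter on low counts the ghrelin comparison called 623 genes, 65.0% of them higher instead of 54.2%. Among genes examined singly, 41 of 83 against other *Chga* cells, 16 of 63 against insulin cells, 28 of 59 against ghrelin cells and 40 of 45 between stages lost a call or changed sign under at least 1 alternative. The other totals of genes called, over both directions, stayed within 1.5 times the value reported. Counts per direction and per list moved further in places. Genes lower against other *Chga* cells went from 586 to 377 when those cells were held to the *Col3a1* limit. Imprinted genes lower in that comparison ranged from 1 to 7 over the alternatives. Version 1 E17.5, with 6 alpha cells, entered no fit.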

Other observations

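Cells with both *Gcg* and *Ghrl* are not among the alpha cells described above. Of 1517 cells with at least 1% *Gcg* and a *Chga* UMI, 285 were left out by the other limits, and 178 of these (11.7% of 1517, exact 95% interval 10.2 to 13.5) solely because *Ghrl* reached 0.3%. They had a median of 5.79% *Gcg* and 1.49% *Ghrl* at a median depth of 9843.5 UMIs. Their number was 84 of 362 (23.2%) in version 2 E17.5, 44 of 295 (14.9%) in version 2 E12.5, 12 of 117 (10.3%) in version 2 E14.5 and 19 of 609 (3.12%) in Fev-Cre. In version 1 it was 7 of 52 (13.5%) at E12.5, 1 of 30 (3.33%) and 4 of 39 (10.3%) in the E14.5 batches, and 7 of 13 (53.8%) at E17.5. Whether these are single cells or pairs of cells was not tested.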
